A study of Mus musculus with 6 samples.

Results

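The genes followed here are 10 that the inflamed colon uses against microbes, measured in cancer-associated fibroblasts (CAFs) of mouse colonic adenomas: Pigr, Duox2, Duoxa2, Nos2, Reg3b, Reg3g, Lcn2, Saa1, Saa2 and Saa3. They were taken by gene name from a table of 49548 genes, in which each of the 10 names stood once. Adult Col6a1-Cre; Rosa26-mTmG mice of the C57/BL6 strain had received azoxymethane, a carcinogen, and dextran sulfate sodium, which injures the colonic lining (AOM/DSS). In these mice the Tomato reporter gives way to GFP wherever Cre has been active, so that GFP+ cells (Col6a1+ CAFs, 3 libraries) or their precursors had expressed the Col6a1-driven Cre, and Tomato+ cells (Col6a1- CAFs, 3 libraries) are all other cells that passed the sort. Both subsets were sorted from digested adenomas as cells lacking CD45, EpCAM, CD31 and Ter119, so genotype, strain, carcinogen and colitis were shared, and each library came from pooled tumors of several mice. No healthy or untreated tissue is compared here, and the subsets are set against each other only.

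The genes form the chemical and peptide arm of mucosal defence. Epithelial cells carry polymeric immunoglobulins into the lumen through the receptor encoded by Pigr, release hydrogen peroxide through the DUOX2-DUOXA2 complex and secrete the C-type lectins REG3B and REG3G, which act on luminal bacteria. Lipocalin-2 (Lcn2) withholds iron by binding bacterial siderophores, inducible nitric oxide synthase (Nos2) makes nitric oxide, and the serum amyloid A proteins (Saa1, Saa2, Saa3) are acute-phase apolipoproteins. Cytokines of colitis, among them IL-22, IL-17A and IL-1, are known to raise many of them, mainly in epithelium, while Saa3 and Lcn2 can also be made by stromal and myeloid cells.

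The levels are normalized counts of QuantSeq libraries, which read 3′ ends of polyadenylated transcripts, and carry no correction for transcript length. The sums over all genes ranged from 3172312 to 3425249 in the Col6a1+ and from 3039152 to 3282417 in the Col6a1- libraries. Col6a1+ replicate 1 stood apart, with 14530 genes detected against 18770 to 20511 in the others. Fibroblast markers were present in all 6 libraries, but markers of the sorted-out epithelium were too. The summed counts of 22 epithelial genes were 6973, 9485 and 8872 in the Col6a1+ libraries and 29556, 50521 and 44927 in the Col6a1- libraries, a mean 4.94 times higher in the latter without overlap (exact two-sided permutation test, p = 0.1, the smallest that 3 against 3 libraries allow). Epcam itself, the surface protein used to remove epithelium, had 1074, 884 and 615 normalized counts in Col6a1+ and 3107, 4129 and 3730 in Col6a1- CAFs. The sum of 9 pan-fibroblast markers went the other way, from 44055 to 48420 in Col6a1+ and from 8766 to 16035 in Col6a1- libraries (exact permutation p = 0.1), and so did that of 7 mural cell markers, from 49519 to 102218 against 1435 to 3727 (exact permutation p = 0.1). Within every Col6a1- library the epithelial sum was above the pan-fibroblast sum, and within every Col6a1+ library it was below. The lists hold unlike numbers of genes, so these sums give no cell fractions. The sum of the myeloid list was low, 251 to 556 against 461 to 1188 (exact permutation p = 0.2), and the leukocyte gene Ptprc, which encodes CD45, reached 2 counts at most in Col6a1+ and 8 in Col6a1- libraries. Since the libraries are bulk, fewer cells of a type and less RNA per cell cannot be told apart. The part of these marker differences in the results that follow was not tested.

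**Figure D1:**
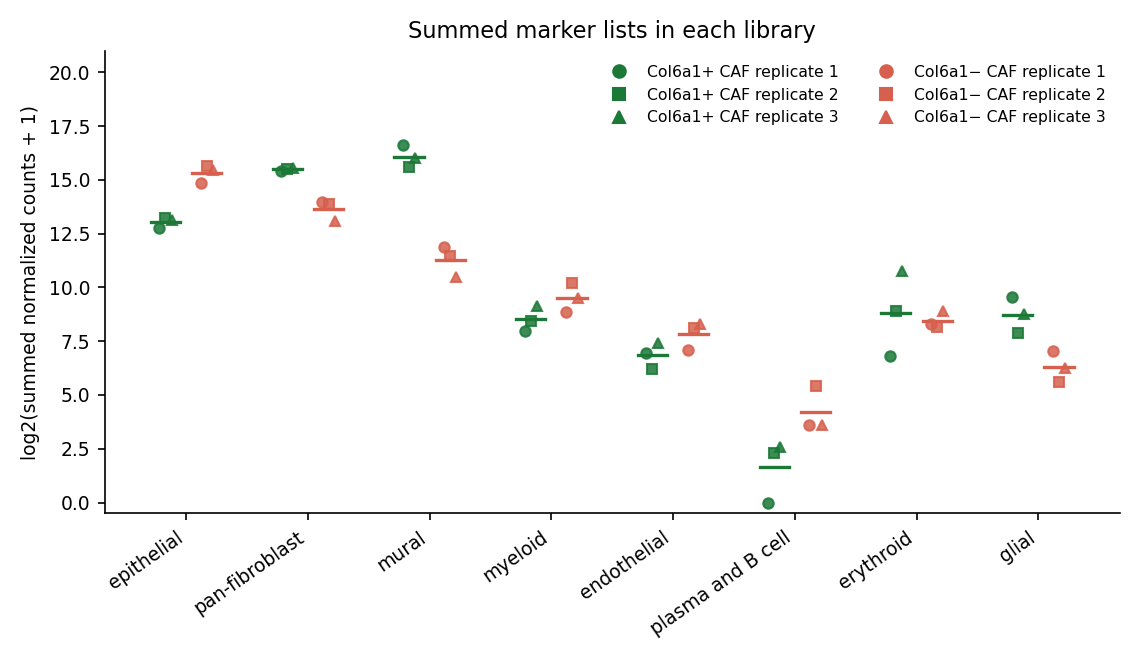
Summed normalized counts of each marker list (vertical axis, log2 of the sum plus 1) in every library, with 1 point per library and a bar at the mean of the 3 log2 values of each subset. The epithelial points lie higher in all 3 Col6a1- libraries, and the pan-fibroblast and mural points lie higher in all 3 Col6a1+ libraries.

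Of the 10 defence genes, 9 had a lower fitted level in Col6a1+ than in Col6a1- CAFs, and Saa3 alone had a higher one. A lower fitted level was also the more frequent direction over all tested genes, with 15523 lower and 10875 higher. Pigr and Duox2 were lower at an adjusted p under 0.05 (limma, Benjamini-Hochberg over the 26402 genes tested), and none was higher. Over all tested genes, 1.96% were called lower and 2.66% higher in Col6a1+ CAFs. When an unadjusted limma p under 0.05 was required together with a log2 fold change beyond 1 in size, 7 of the 10 were lower and 0 higher, where 8.61% and 6.09% of all genes were. Saa3 reached an unadjusted p of 0.0422 in limma with a smaller fold change. For 5 genes the levels of the subsets were fully separated, all lower in Col6a1+ CAFs, against 11.6% of all genes in that direction and 7.91% in the other. The median log2 fold change of the 10 was -1.81, and that of all genes was -0.27. In a limma fit limited to the 13515 genes averaging 10 counts or more, which left out Saa2, the median of all genes was -0.15. By the same rule of unadjusted p and fold change, 5 defence genes were lower and 0 higher in that fit. Of all its genes, 1569 were lower and 1432 higher. All log2 fold changes are Col6a1+ minus Col6a1- CAFs on the scale of the log2 normalized count plus 1, which understates the change of weakly expressed genes.

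**Figure D2:**
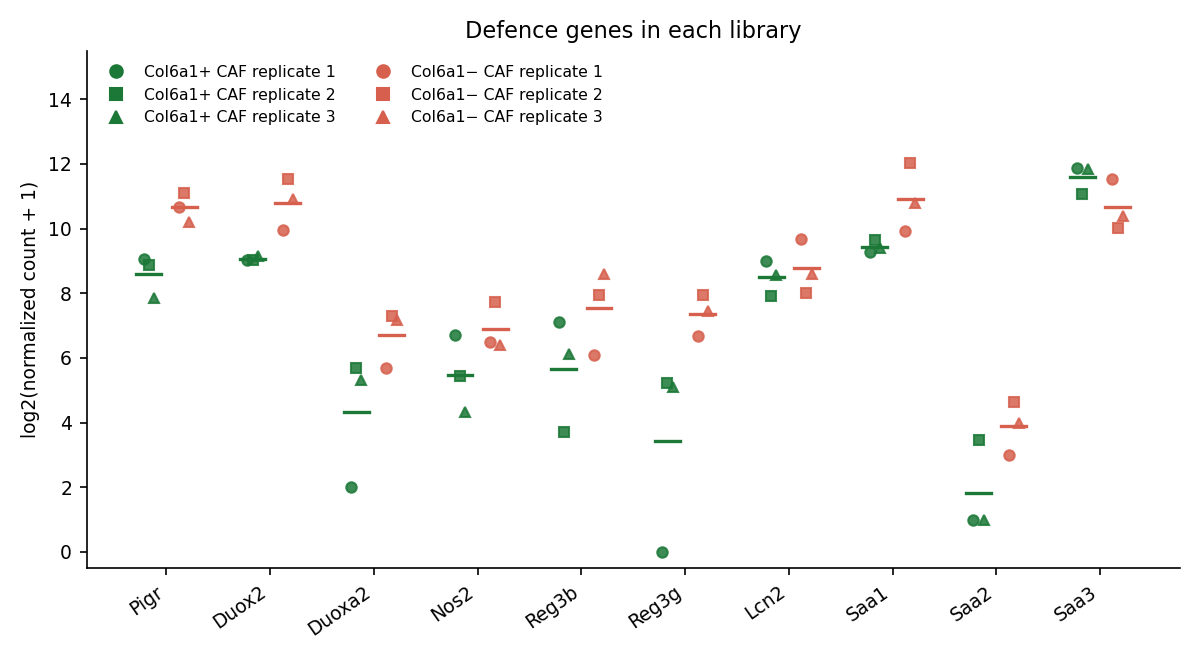
Levels of the 10 defence genes (vertical axis, log2 of the normalized count plus 1) in the 3 Col6a1+ and the 3 Col6a1- libraries, with 1 point per library and a bar at the mean of the log2 values. The points of Pigr, Duox2, Duoxa2, Reg3g and Saa1 do not overlap between the subsets, and Saa3 is the only gene with a higher mean in Col6a1+ CAFs.

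Pigr encodes the polymeric immunoglobulin receptor of epithelial cells (ENSMUSG00000026417, chr1:130826684-130852249 on mm10, plus strand). It had 535, 468 and 228 normalized counts in the Col6a1+ libraries and 1642, 2174 and 1169 in the Col6a1- libraries, so the lowest Col6a1- library was above the highest Col6a1+ library. The means were 410 ± 161 and 1662 ± 503 (SD, n = 3), a ratio of 4.05, and the log2 fold change was -2.06 (SE 0.38, limma adjusted p = 0.0128). When replicate numbers entered the fit as blocks, the adjusted limma p of Pigr was 0.0612. Jchain, the joining chain of the polymeric immunoglobulins that this receptor carries, had 0 to 3 counts in Col6a1+ and 6 to 20 in Col6a1- libraries. The plasma and B cell list, which includes Jchain, summed to 0 to 5 against 11 to 42 counts (exact permutation p = 0.1). In that list Mzb1 had 0, 1 and 0 counts against 5, 22 and 1, and Ms4a1 and Cd79b were at 0 in every library. Of its 4 tested genes, 2 had negative and 2 positive fold changes.

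Among the oxidant enzymes, Duox2 passed the test. Duox2, the dual oxidase that produces hydrogen peroxide at the apical membrane (ENSMUSG00000068452, chr2:122279247-122298165, minus strand), had 518, 526 and 570 counts in Col6a1+ and 997, 2955 and 1923 in Col6a1- libraries. The Col6a1+ libraries lay close together, with a mean of 538 ± 28.0, whereas the Col6a1- libraries spread widely, with a mean of 1958 ± 979 (SD, n = 3). The log2 fold change was -1.73 (SE 0.37, limma adjusted p = 0.0272), and the adjusted p with the replicate block was 0.112. Its maturation factor Duoxa2 (ENSMUSG00000027225, chr2:122298900-122302885, plus strand) starts 734 bases away, head to head with Duox2. Duoxa2 had 3, 50 and 39 counts in Col6a1+ and 51, 155 and 143 in Col6a1- libraries. The subsets were separated by a single count, and the log2 fold change of -2.39 (SE 0.91) did not pass the correction (limma adjusted p = 0.203). It moved to -1.22 (adjusted p = 0.295) without Col6a1+ replicate 1, the library with 3 counts. The Duoxa2 interval overlaps that of Duoxa1 on the other strand by 695 bases, and Duoxa1 was at 0 in all 6 libraries. The log2 ratio of Duoxa2 to Duox2 within a library was -7.02, -3.37 and -3.84 in Col6a1+ and -4.26, -4.24 and -3.74 in Col6a1- CAFs, overlapping ranges with an exact two-sided permutation p of 0.9.

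Nos2, the inducible nitric oxide synthase (ENSMUSG00000020826, chr11:78920787-78960254, plus strand), had 103, 42 and 19 counts in Col6a1+ and 89, 212 and 84 in Col6a1- libraries. The subsets overlapped, because Col6a1+ replicate 1 was above 2 of the Col6a1- libraries. The log2 fold change was -1.40 (SE 0.63, limma adjusted p = 0.311), and -0.82 without Col6a1+ replicate 3, the library with 19 counts.

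The REG3 lectins lie 92802 bases apart on chromosome 6. Reg3g, a bactericidal lectin against Gram-positive bacteria (ENSMUSG00000030017, chr6:78466269-78468872, minus strand), had 0, 36 and 33 counts in Col6a1+ and 101, 246 and 174 in Col6a1- libraries. No Col6a1+ library reached the lowest Col6a1- library, and the means of 23.0 ± 20.0 and 174 ± 72.5 (SD, n = 3) gave the highest ratio among the 10 genes, 7.55. Its log2 fold change of -3.93 (SE 1.18) rested in part on the 0 of Col6a1+ replicate 1. Such a 0 is compatible with an expected level of up to 3 reads before scaling. Without that library the log2 fold change was -2.21. The adjusted limma p was 0.0982, and 0.0512 without it. Reg3b, a related lectin (ENSMUSG00000071356, chr6:78370657-78373466, plus strand), had 137, 12 and 69 counts in Col6a1+ and 67, 245 and 387 in Col6a1- libraries. Here the subsets overlapped, and the library without Reg3g counts was the Col6a1+ library with the most Reg3b. The log2 fold change of Reg3b was -1.90 (SE 0.85, adjusted p = 0.310), and -0.92 without Col6a1+ replicate 2, the library with 12 counts. Across the last 200 transcript bases, which a 3′ library reads, the transcripts of Reg3b and Reg3g were 60.5% identical with a longest shared run of 12 bases.

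Lcn2, the siderophore-binding lipocalin-2 (ENSMUSG00000026822, chr2:32384633-32388252, minus strand), had 515, 239 and 375 counts in Col6a1+ and 821, 256 and 389 in Col6a1- libraries. The subsets overlapped, and replicate 2 was the lowest library of each. The log2 fold change of -0.27 had a 95% interval from -1.27 to 0.72 (limma adjusted p = 0.740), so a change of about 1 log2 unit downward was not excluded by these libraries. Lcn2 therefore had the fold change nearest to 0 of the 10 genes, and its difference lay at the median of all genes.

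The serum amyloid A genes share a cluster on chromosome 7, and none of them passed the adjusted test. Saa1 and Saa2, near-identical acute-phase genes, lie head to head, and Saa3 is a more distant member. The following windows, bases 250 to 51 before the RefSeq start (GRCm38.p6), are shown because Saa3 differed from Saa1 and Saa2 in sequence and in direction. A link between sequence and level was not tested. Capitals mark matches, on either strand, to GGG and CC with any 5 bases between them (NF-κB), TTNNGNAA (C/EBP) or TTCNNNGAA (STAT). Saa1 is from chr7:46743031-46743230 (minus strand), Saa2 from chr7:46751583-46751782 (plus strand) and Saa3 from chr7:46715727-46715926 (minus strand).
Saa1: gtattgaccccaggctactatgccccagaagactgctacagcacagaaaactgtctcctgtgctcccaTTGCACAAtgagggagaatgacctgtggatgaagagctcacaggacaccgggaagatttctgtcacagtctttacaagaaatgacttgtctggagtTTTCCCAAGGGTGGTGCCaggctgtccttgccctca
Saa2: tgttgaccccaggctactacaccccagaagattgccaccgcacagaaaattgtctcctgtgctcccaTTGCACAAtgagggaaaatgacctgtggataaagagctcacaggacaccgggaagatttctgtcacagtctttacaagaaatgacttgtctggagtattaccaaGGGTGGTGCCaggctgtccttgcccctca
Saa3: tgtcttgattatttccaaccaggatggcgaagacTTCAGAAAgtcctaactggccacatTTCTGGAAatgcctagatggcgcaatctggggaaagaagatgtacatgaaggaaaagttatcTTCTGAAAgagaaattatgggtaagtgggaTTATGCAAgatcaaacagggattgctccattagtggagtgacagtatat

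The windows of Saa1 and Saa2 each held 1 NF-κB match, 78 and 79 bases before the start, and 2 and 1 C/EBP matches, whereas that of Saa3 held 0 NF-κB and 4 C/EBP matches. In Saa1 the C/EBP match nearest to the start adjoins the NF-κB match. Over the 250 bases before each start, the NF-κB letters were in 45.8% of all 32851 windows, the C/EBP letters in 36.8% and the STAT letters in 7.02%. Among the 9 defence genes with a window, 5 held the NF-κB letters, 5 the C/EBP letters and 1, Reg3b, the STAT letters. A match of so few letters is a description and no sign of binding. The windows of Saa1 and Saa2 were 95.6% identical, against 59.4% for Saa1 and Saa3.

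Saa1 (ENSMUSG00000074115, chr7:46740497-46742980 on mm10, minus strand) had 617, 800 and 679 counts in Col6a1+ and 964, 4138 and 1760 in Col6a1- libraries. Every Col6a1- library was above every Col6a1+ library, and the log2 fold change was -1.46 (SE 0.45, limma adjusted p = 0.109). Without Col6a1- replicate 2, the library with 4138 counts, it was -0.91 (adjusted p = 0.311). Saa2 (ENSMUSG00000057465, chr7:46751790-46754313, plus strand) was near the floor, with 1, 10 and 1 counts against 7, 24 and 15, and a log2 fold change of -2.06 (SE 1.06, adjusted p = 0.385). The last 200 bases of the Saa1 and Saa2 transcripts were 92.9% identical with a shared run of 39 bases. The split of reads between these paralogues is therefore uncertain.

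Saa3 was the defence gene with the highest counts in Col6a1+ CAFs (ENSMUSG00000040026, chr7:46711998-46715700, minus strand). It had 3720, 2154 and 3695 counts in Col6a1+ and 2990, 1036 and 1346 in Col6a1- libraries. The subsets overlapped, but in each same-numbered pair the Col6a1+ library was higher. The means were 3190 ± 897 and 1791 ± 1050 (SD, n = 3), the log2 fold change was 0.94 (SE 0.41), and the limma p was 0.285 after adjustment. Without Col6a1- replicate 2 the log2 fold change was 0.62. The last 200 transcript bases of Saa3 were 54.9% identical to those of Saa1, so these paralogues are easier to tell apart. The log2 ratio of Saa3 to Saa1 within a library was 2.59, 1.43 and 2.44 in Col6a1+ and 1.63, -1.997 and -0.39 in Col6a1- CAFs. The ratio was thus higher by 2.40 log2 units in Col6a1+ CAFs with overlapping ranges (exact two-sided permutation test, p = 0.2, smallest possible 0.1). Saa3 counts exceeded Saa1 counts in all 3 Col6a1+ libraries and in 1 Col6a1- library.

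**Figure D3:**
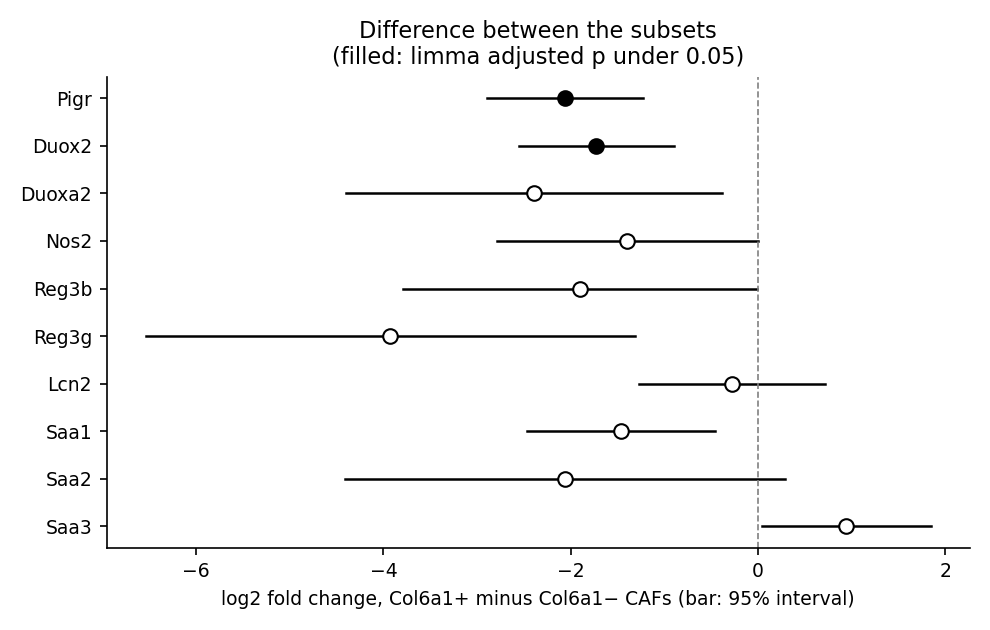
Log2 fold change of each defence gene (Col6a1+ minus Col6a1- CAFs, horizontal axis) with its 95% interval from limma, filled where the adjusted p is under 0.05. Pigr (-2.06) and Duox2 (-1.73) are filled, the interval of Lcn2 spans 0, and Saa3 (0.94) is the only gene right of 0.

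In the 3 same-numbered pairs, 7 genes were lower in the Col6a1+ library of every pair, and Saa3 was higher in every pair. Nos2 and Reg3b were higher in the first pair and lower in the others. The share of all tested genes lower in every pair was not worked out for normalized counts. Whether 7 genes are more than this background was therefore not tested. Over all tested genes, 15523 had a lower and 10875 a higher fitted level in Col6a1+ CAFs.

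Because epithelial markers were unevenly held, each defence gene was also expressed per 1000 summed counts of the 22 epithelial markers in the same library. On this scale the subsets overlapped for 9 of the 10 genes, and the mean was higher in Col6a1+ libraries for 9, all but Reg3g, as it was for 78.9% of all tested genes. In the same-numbered pairs, Lcn2, Nos2, Saa1 and Saa3 were higher in all 3 and Reg3g was lower in all 3, against 43.9% and 2.83% of all tested genes. Pigr ranged from 25.7 to 76.7 per 1000 in Col6a1+ and from 26.0 to 55.6 in Col6a1- libraries, and Duox2 from 55.5 to 74.3 and from 33.7 to 58.5. Thus the separation seen for these genes in normalized counts was not seen per epithelial marker count. Reg3g had 0, 3.80 and 3.72 per 1000 in Col6a1+ and 3.42, 4.87 and 3.87 in Col6a1- libraries, and apart from the 0 of Col6a1+ replicate 1 the values overlapped. Lcn2 ranged from 25.2 to 73.9 against 5.07 to 27.8. Saa3, with 227 to 533 against 20.5 to 101, was the one gene without overlap, higher in Col6a1+ CAFs, as were 40.1% of all tested genes per epithelial count, with 2.01% lower.

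Per 1000 counts of the 9 pan-fibroblast markers, a scale added after seeing the data, 9 genes were lower in Col6a1+ CAFs without overlap, as were 43.7% of all tested genes (1.49% were higher). Pigr ranged from 4.71 to 12.1 against 102 to 142, and Lcn2 from 5.19 to 11.7 against 16.8 to 51.2. The subsets overlapped for Saa3 alone, from 46.8 to 84.4 against 67.8 to 186. The direction of a difference thus depended on the denominator for most of the 10 genes, since the epithelial sum was higher in Col6a1- and the fibroblast sum in Col6a1+ libraries, and each scale shifts all genes alike.

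**Figure D4:**
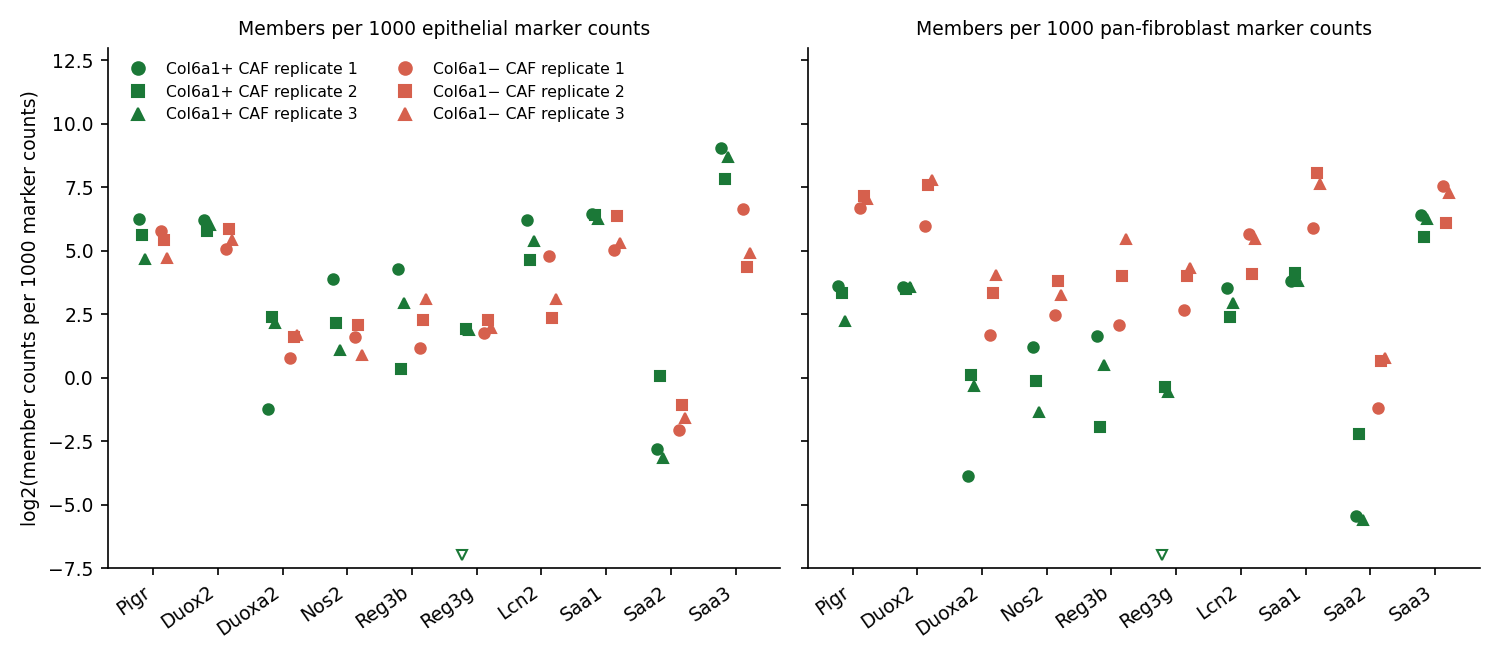
Defence gene counts per 1000 epithelial (left) or pan-fibroblast (right) marker counts on a log2 axis, with 1 point per library and an open downward triangle for 0 counts (Reg3g, Col6a1+ replicate 1). Only Saa3 separates the subsets in the left panel, with Col6a1+ above, and all genes but Saa3 separate them in the right panel, with Col6a1- above.

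Other genes of the same defence were listed by function in 3 lists of 76 names, of which 68 were tested, 9 of these were called higher and 12 lower in Col6a1+ CAFs, where 2.66% and 1.96% of all tested genes were. These shares are the background for each list. Of the antimicrobial and acute-phase genes, 25 of 30 were tested, 9 were called lower and 1 higher, with a median log2 fold change of -2.25, and Reg1, Reg2, Reg3a, Reg3d and Chil3 were at 0 in every library. The calprotectin subunits, abundant in neutrophils, fell together. S100a8 had 23, 17 and 29 counts in Col6a1+ and 211, 387 and 167 in Col6a1- libraries (log2 fold change -3.35, SE 0.46, limma adjusted p = 0.00300), and S100a9 had 20, 18 and 7 against 229, 391 and 162 (-4.06, SE 0.54, adjusted p = 0.00259). None of the myeloid markers was called by limma in either direction. The 12 myeloid genes have 13 entries, since Itgam is entered more than once. At an unadjusted p under 0.05, 4 of the 13 entries were lower and 0 higher, against 2483 and 1751 of the 26402 tested genes. Fold changes were negative for 11 entries and positive for 2. Of the neutrophil genes among them, Ly6g had 33, 154 and 194 counts against 205, 751 and 331 (adjusted p = 0.165), and Cxcr2 had 81, 74 and 83 against 61, 118 and 86 (adjusted p = 0.903). Csf3r had 0, 8 and 8 against 5, 24 and 16 (adjusted p = 0.548). The myeloid gene Tyrobp was separated, with 0, 3 and 5 against 23, 33 and 23 (log2 fold change -3.22, adjusted p = 0.104). Intelectin-1 (Itln1), a microbe-binding lectin, fell with 0, 41 and 4 counts against 250, 223 and 370 (-5.53, adjusted p = 0.0171), and so did the lectin gene Zg16 (-3.70, adjusted p = 0.0456). The secreted phospholipase Pla2g2a fell as well, with 124, 133 and 153 counts against 3733, 875 and 1347 (log2 fold change -3.58, adjusted p = 0.00232). Ceruloplasmin (Cp), a copper-binding acute-phase ferroxidase, was the only gene of this list called higher, with 1269, 1131 and 1584 counts against 337, 160 and 206 (2.55, SE 0.33, adjusted p = 0.00232).

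Of the oxidant and nitric oxide genes, 19 of 22 were tested, 3 were called lower and 1 higher, with a median of -1.45. Duoxa1, Nox3 and Mpo were at 0 throughout. Noxo1, the organizer of the epithelial oxidase NOX1, had 106, 87 and 67 counts in Col6a1+ and 304, 530 and 323 in Col6a1- libraries (log2 fold change -2.12, SE 0.36, limma adjusted p = 0.00897). The oxidase gene Nox1 was low and overlapped between the subsets, with 32, 12 and 3 counts against 9, 24 and 4 (0.15, adjusted p = 0.953). Cyba, which encodes the p22phox subunit, fell (-1.79, adjusted p = 0.00810), as did Ass1, which resynthesizes the arginine that NOS2 consumes (-2.99, adjusted p = 0.0390). The arginine transporter Slc7a2 was opposite, with 177, 111 and 106 counts against 8, 14 and 8 (3.59, SE 0.53, adjusted p = 0.00464).

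Of 24 upstream genes, mostly receptors and transcription regulators but also Jchain, all 24 were tested, 7 were called higher and 0 lower by limma, and the median was 0.65. Of the 24, 7 had negative fold changes, and Tlr2, Jchain and Hnf4a were lower at an unadjusted p under 0.05 with a log2 fold change beyond 1. The IL-1 receptor gene Il1r1 had 191, 118 and 84 counts in Col6a1+ and 42, 9 and 9 in Col6a1- libraries (log2 fold change 2.94, SE 0.66, adjusted p = 0.0315). The oncostatin M receptor gene Osmr (2.21, adjusted p = 0.0251) and its partner Il6st, which encodes gp130 (1.71, adjusted p = 0.0161), rose with it. Cebpb had 388, 1399 and 916 counts against 161, 271 and 221 (1.89, adjusted p = 0.0390) and Cebpd 1272, 2291 and 1798 against 447, 741 and 528 (1.63, adjusted p = 0.0165), both encoding C/EBP factors of the acute-phase response. With the replicate block no gene of the table passed an adjusted p under 0.05 (limma, smallest 0.0612). At an unadjusted p under 0.05 in that fit, 14 of the 68 were higher and 26 lower, against 7.01% and 9.72% of all tested genes.

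**Figure D5:**
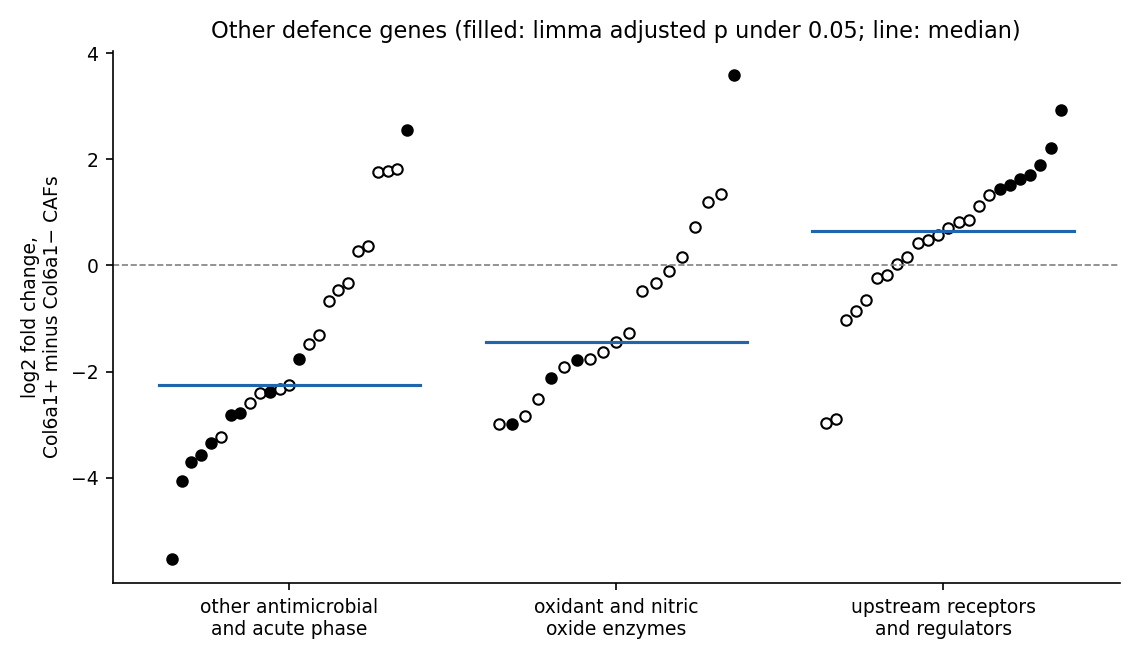
Log2 fold change (vertical axis, Col6a1+ minus Col6a1- CAFs) of each tested gene of the 3 defence lists, filled where the limma adjusted p is under 0.05, with a line at the list's median. The medians are -2.25 for antimicrobial and acute-phase genes, -1.45 for oxidant and nitric oxide enzymes and 0.65 for upstream receptors and regulators.

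The genes with the most similar profile to each defence gene were sought over the 6 libraries among 13514 genes that averaged 10 normalized counts or more. The libraries fall into 2 subsets, so these Pearson correlations mix differences between and within subsets and are given without a p. The top 3 for each of 9 defence genes had r from 0.976 to 0.998, and Saa2 was too low to be ranked. Picking the highest of 13514 correlations over 6 libraries can give such values for unrelated genes. Shared regulation was not tested, and the names below are a description only. Closest to Pigr were Cfb, which encodes complement factor B, S100a14 and Ndufa1. Closest to Duox2 were the AP-1 gene Fosl1, Shroom3 and Pomk, to Duoxa2 Ect2, Mpp7 and Mtf1, and to Nos2 Gna14, Mrpl28 and AA986860. Closest to Reg3g were 1110008L16Rik, the epithelial polarity gene Crb3 and Capza2, and to Reg3b Sh2d4a, Fam199x and Gm21969. For Lcn2 they were Zscan29, Slc6a9 and Card19, for Saa1 Tm4sf20, Clec2h and Gm6139, and for Saa3 Lyrm4, Csnk1d and the cytokine gene Il11. No gene was shared between these lists.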

How the data were processed

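QuantSeq 3′ libraries were made from 3 Col6a1+ and 3 Col6a1- CAF samples, and the groups and replicate numbers follow the labels. The authors mapped reads to mm10 with TopHat2 and Bowtie2, counted them per gene with GenomicRanges and scaled them with DESeq through metaseqR. The authors deposited the log2 of the normalized count plus 1 for each library, 100% of which gave whole normalized counts within 1e-06. The use of strand in counting is not given in the sources used here. Their p-values, false discovery rates and fold changes, and 6 further columns of per-sample values, were not used.

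The deposited log2 values of the 26402 genes that reached 1 normalized count or more in total were compared with limma 3.58.1 in R 4.3.3 (eBayes with trend, two-sided) and adjusted by the Benjamini-Hochberg method, after a test on simulated data. The simulation gave all genes the same spread setting and larger changes than Pigr or Duox2 showed. It therefore does not measure how the fit performs on these libraries. A count of 0 was taken as compatible with an expected level of up to 3 reads before the authors' scaling, not as hiding observed reads. The normalized count to which this level corresponds was not worked out. Precision covers counting and library spread only. The sums of normalized counts carry the authors' scaling and are not reads. The defence genes and lists were chosen with earlier results of these data known. Named from each list were at most 5 called genes per direction by size of change, and for each gene with a mean of at least 10 counts the 3 most correlated genes.

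Deviations from the group means correlated weakly between same-numbered libraries (0.245, 0.126 and 0.144 over 13515 genes, against -0.245 to 0.150 for other numbers). The 0.150, between Col6a1+ replicate 2 and Col6a1- replicate 3, was above the same-numbered 0.126 and 0.144. These values do not settle whether the numbers mark pairs. Treating them as pairs, in the block and in the pair comparisons, was an assumption. RefSeq windows (GRCm38.p6) matched 9 of the 10 genes, all but Nos2. Transcripts were those of GENCODE M21. Alignments used Biopython 1.88 in Python 3.11.15 with NumPy 2.4.6 and pandas 2.3.3, and plots Matplotlib 3.10.9. Alternatives were equal library totals, no filter, a mean or minimum of 10 counts, a pseudocount of 0.1, limma-voom, the replicate block and leaving out each library. The block restricted to genes averaging 10 counts or more, the levels per fibroblast marker count, the pairs per epithelial marker count and the ratios between defence genes were added after seeing the data.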

Additional observations from a re-analysis of the deposited data

How the results depend on the processing

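The count of defence genes called lower in Col6a1+ CAFs was 2. It was 0 with no filter on low counts, 0 with the replicate block, 5 with the block and a mean of at least 10 (Pigr, Duox2, Duoxa2, Reg3g and Saa1, limma adjusted p from 0.00283 to 0.0305), and 0 to 1 when 1 library was left out. The 1 was Pigr without Col6a1+ replicate 1 (adjusted p = 0.0445), and Duox2 passed in no such fit (0.0689 to 0.194). At an unadjusted limma p under 0.05, 4 were lower with no filter, where 2058 of all 49548 genes were. With the block 6 were lower, where 2567 of 26402 genes were. Equal library totals, a mean or a minimum of 10 counts, a pseudocount of 0.1 and limma-voom each gave 2 lower and 0 higher. Over all genes, 703 were called higher and 517 lower. With no filter these were 21 and 7, with the block 0 and 0 (1851 and 2567 at an unadjusted p under 0.05), and with 1 library left out 11 to 453 and 1 to 442, the lowest of each without Col6a1- replicate 1. The count called lower was 336 with a pseudocount of 0.1, 798 with limma-voom and 871 with the block and a mean of at least 10. Of the listed defence genes, 9 were called higher and 12 lower. With no filter both counts were 0. At an unadjusted limma p under 0.05 in that fit they were 13 and 21, against 1736 and 2058 of all 49548 genes. The counts called were 0 and 0 with the block, and 0 to 6 and 0 to 9 with 1 library left out. The log2 fold change of Lcn2 ranged from -0.65 to 0.18 with 1 library left out, turning to 0.02 without Col6a1+ replicate 2 and 0.18 without Col6a1- replicate 1, and no other defence gene changed sign in any of these fits. The cause of these changes was not tested. With 3 libraries a subset, no exact test of a single value can go below 0.1.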
